A study of Mus musculus with 4 samples.

Results

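Auts2, Ikzf2, Tespa1, Dapp1 and Arhgap6 are 5 of the 32285 genes counted in a single-cell survey of mouse bone marrow. They were chosen from the measured values themselves, because they lead a cell state found almost only in the library labelled Mll3/4SI, so their level in that state is described here and not tested. The survey holds 4 libraries of CD45.2+Kit+ bone marrow cells taken 10 weeks after transplantation, 1 library for each group: a control, Mll3SI, Mll4SI and Mll3/4SI. CD45.2 is commonly the marker of donor cells in a transplanted mouse, and Kit is the stem cell factor receptor carried by blood progenitors and mast cells. Mll3 and Mll4 are the common names of Kmt2c and Kmt2d, which encode large histone methyltransferases of COMPASS complexes that act at enhancers. The sources used here do not give the meaning of SI, the promoter or cell type behind each allele, the ages, or the number of donors or recipients in a library. With 1 library a group there is no replicate, so no test between groups was possible, and every interval below is an exact 95% interval that covers counting error only.

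The 5 genes have different roles. Auts2 encodes a nuclear protein that joins a form of Polycomb repressive complex 1 and has been linked to gene activation in neurons. Ikzf2 encodes Helios, a zinc finger transcription factor of the Ikaros family, known from regulatory T cells and from blood progenitors. Tespa1 encodes an adaptor of T cell receptor signalling that binds the inositol trisphosphate receptor. Dapp1, also called Bam32, encodes an adaptor that binds the lipid products of phosphoinositide 3-kinase and is known from B cell receptor signalling. Arhgap6 encodes a GTPase-activating protein with a part in actin organisation.

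In the mouse build GRCm38 (GENCODE M21 annotation), Auts2 (ENSMUSG00000029673) lies on the minus strand at chr5:131437333-132543344 and spans 1106012 bases, the length ranked 40 among the 32158 genes matched to that annotation. Ikzf2 (ENSMUSG00000025997) lies at chr1:69531214-69687245 and Dapp1 (ENSMUSG00000028159) at chr3:137931007-137981545, both on the minus strand. Tespa1 (ENSMUSG00000034833) lies at chr10:130322870-130364111 and Arhgap6 (ENSMUSG00000031355) at chrX:168795099-169304435, both on the plus strand. Other annotated genes overlap 3 of them. Gm15261, an antisense gene inside Arhgap6, had 7.94, 6.45, 8.84 and 27.4 CPM (counts per 1000000 counts) in control, Mll3SI, Mll4SI and Mll3/4SI. Gm15261 was counted as a gene of its own. Whether the authors' counting used strand is not given in the sources used here. It is therefore not known whether reads of an antisense partner entered the count of its gene.

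RefSeq promoters (GRCm38.p6) were matched for 2 of the 5 genes, Dapp1 and Arhgap6, which also had the most alike levels across cell classes of any pair. The 250 bases before each annotated start are shown from 5′ to 3′ on the gene's strand, with capitals where a searched motif was found on either strand.
Dapp1, minus strand, chr3:137981550-137981799: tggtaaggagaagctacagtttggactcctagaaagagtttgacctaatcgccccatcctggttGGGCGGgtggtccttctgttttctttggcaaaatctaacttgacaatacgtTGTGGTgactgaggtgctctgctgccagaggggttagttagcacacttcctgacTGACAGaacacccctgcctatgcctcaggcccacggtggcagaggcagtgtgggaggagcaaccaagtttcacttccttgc
Arhgap6, plus strand, chrX:168794849-168795098: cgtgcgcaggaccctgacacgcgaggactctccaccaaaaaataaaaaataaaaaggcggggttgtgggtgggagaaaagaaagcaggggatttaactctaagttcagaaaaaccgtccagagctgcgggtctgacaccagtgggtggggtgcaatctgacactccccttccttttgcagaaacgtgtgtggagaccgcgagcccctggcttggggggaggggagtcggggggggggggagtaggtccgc
Arhgap6, plus strand, chrX:169036361-169036610: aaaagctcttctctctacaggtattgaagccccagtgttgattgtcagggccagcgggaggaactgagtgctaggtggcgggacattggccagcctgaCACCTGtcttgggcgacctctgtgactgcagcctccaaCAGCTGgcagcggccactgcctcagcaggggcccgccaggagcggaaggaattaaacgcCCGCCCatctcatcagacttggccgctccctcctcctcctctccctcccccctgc
Arhgap6, plus strand, chrX:169112628-169112877: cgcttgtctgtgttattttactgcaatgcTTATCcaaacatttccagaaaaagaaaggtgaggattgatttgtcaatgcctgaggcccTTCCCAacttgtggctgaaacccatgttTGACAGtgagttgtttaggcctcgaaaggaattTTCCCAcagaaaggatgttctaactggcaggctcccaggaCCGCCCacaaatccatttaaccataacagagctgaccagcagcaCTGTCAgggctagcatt

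The motifs searched, on both strands, were GATA (GATAA), RUNX (TGTGGT), Ikaros (TGGGAA), PU.1 (GAGGAAGT), E-box (CANNTG), MEIS (TGACAG), AP-1 (TGACTCA) and the GC box (GGGCGG). The Dapp1 window held 1 RUNX, 1 MEIS and 1 GC box match. The first Arhgap6 window held none, the next held 2 E-box matches and 1 GC box match, and the last held 1 GATA, 2 Ikaros, 2 MEIS and 1 GC box match. Of 32851 RefSeq promoter windows of the same length, 14.1% held the RUNX letters, 15.9% the MEIS letters, 22.6% the GATA letters, 21.6% the Ikaros letters, 66.2% an E-box and 32.7% a GC box. A MEIS match stood in the Dapp1 window and in 1 of the 3 Arhgap6 windows. A match is a description of letters and does not show a bound site.

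Each kept cell is 1 barcode with at least 1000 unique molecular identifiers (UMIs, which count RNA molecules), and 6743, 8023, 10186 and 6755 such cells remained in control, Mll3SI, Mll4SI and Mll3/4SI. The median depth was 12800 to 19172 UMIs per cell, and 11 to 21 barcodes were shared between any pair of libraries. Xist, the RNA of the inactive X chromosome, was at 0.0315 and 0.194 CPM in control and Mll3SI and at 1149 and 1358 in Mll4SI and Mll3/4SI, while the Y-linked gene Eif2s3y was at 63.4 and 61.9 in control and Mll3SI and at 0 UMIs in the other libraries. Donor sex therefore cannot be told apart from the group in the comparisons of Mll4SI and Mll3/4SI with control, and Arhgap6 is X-linked. Kmt2c stood at 110.2 to 148 and Kmt2d at 33.3 to 41.5 CPM in the 4 libraries, and these levels do not check the alleles, whose kind is not given.

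Cells of the 4 libraries were clustered together into 27 clusters without the 5 genes, and a cluster was named only from marker genes. The state was made of the clusters with at least 80% of their cells from Mll3/4SI that were not named granulocyte-like or monocyte-like. It had 1997 of the 6755 Mll3/4SI cells (29.6%) and 13 cells of the other libraries, 3 in control, 3 in Mll3SI and 7 in Mll4SI. It joined cluster 8, with 1332 Mll3/4SI cells, and cluster 17, with 665. The label of a single state is not borne out by these clusters, whose leading genes differ. Cluster 8 was led by the mast cell and basophil protease gene Cpa3, followed by Ly6e and the monocyte marker Ms4a6c. The granule genes Mpo, Ctsg and Prtn3 were also among its leading genes. Cluster 17 was led by the angiopoietin gene Angpt1, the IgE receptor chain Fcer1a, Arhgap6, Cpa3 and the platelet factor gene Pf4. Neither cluster met the marker rule for a cell type, and both are called by their number. Clusters 12 and 24, named granulocyte-like, were also almost all Mll3/4SI (1215 of 1225 and 224 of 227 cells), and with 1 library a group a cluster of 1 library cannot be told apart from that library.

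The 5 genes ranked 3 to 10 among all genes for the ratio of the state over all other cells. CPM are UMIs of a gene per 1000000 UMIs summed over the cells of a class. Auts2 stood at 440.5 CPM in the state and 64.3 in all other cells, Arhgap6 at 272 against 33.4, Ikzf2 at 343 against 71.0, Tespa1 at 210 against 33.7, and Dapp1 at 635 against 172. With 50 CPM added to both, their log2 ratios were 2.10, 1.95, 1.70, 1.63 and 1.62. Cpa3 (2.89), Fcer1a (2.33), Angpt1 (2.09), Ly6e (1.86) and Xist (1.78) stood among them, and the next genes down were Scin (1.60), Serpina3g (1.59) and Slc24a3 (1.59). These ratios chose the genes and support nothing further.

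Over all kept cells, each of the 5 genes was highest in Mll3/4SI. Auts2 stood at 74.3, 40.9, 88.5 and 177 CPM in control, Mll3SI, Mll4SI and Mll3/4SI. Ikzf2 stood at 85.3, 65.5, 78.7 and 146 CPM. Tespa1 stood at 37.9, 28.6, 38.4 and 88.7 CPM. For all 3 of these genes Mll3SI was the lowest library, and control and Mll4SI lay closer to each other than to Mll3/4SI. Dapp1 stood at 198, 169, 174 and 306 CPM, and Arhgap6 at 38.0, 26.3, 38.5 and 110.2 CPM. The log2 ratio of Mll3/4SI over control, with 1 CPM added to both, was 1.24 for Auts2 (1.22 to 1.285), 0.77 for Ikzf2 (0.745 to 0.81), 1.20 for Tespa1 (1.18 to 1.27), 0.63 for Dapp1 (0.61 to 0.65) and 1.51 for Arhgap6 (1.49 to 1.58). The intervals leave out the added 1 CPM. Thus 3 of the 5 passed a 2-fold ratio, and 1.70% of the 12358 genes with a mean of at least 1 CPM were at least 2-fold higher there. The genes were chosen on the Mll3/4SI cells, so nothing is read from that count. Mll3SI over control ranged from -0.85 for Auts2 to -0.22 for Dapp1, and Mll4SI over control from -0.19 for Dapp1 to 0.25 for Auts2.

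**Figure D1:**
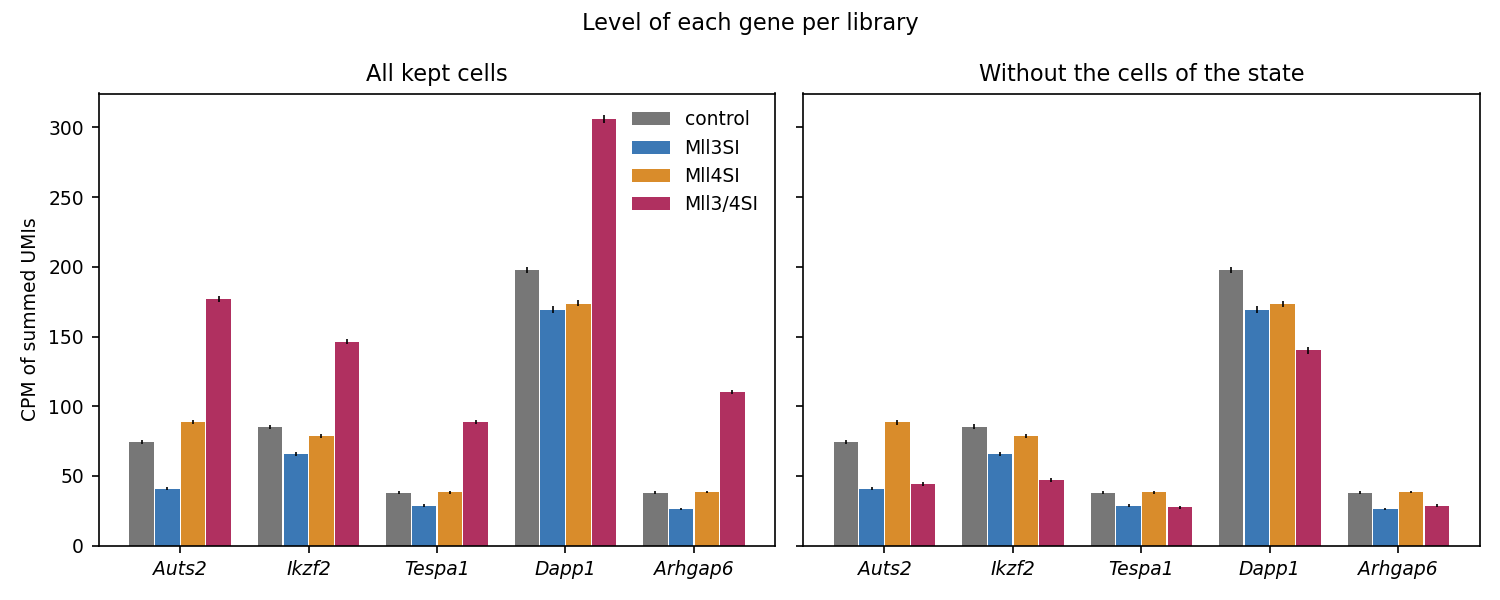
CPM of each gene in each library (bars, from 0), over all kept cells at left and without the cells of the state at right, with exact 95% counting intervals as error bars and 1 library per bar. The Mll3/4SI bar is the highest of 4 for each gene at left (Auts2 177 CPM) and lies below control for each gene at right (Auts2 44.1 CPM).

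Leaving out the state lowered the Mll3/4SI level of these genes, which their choice as leading genes of the state fixed in advance. Without the cells of the state, Mll3/4SI stood at 44.1 CPM for Auts2, 47.4 for Ikzf2, 27.7 for Tespa1, 140.1 for Dapp1 and 28.5 for Arhgap6. All 5 values lay below control, with log2 ratios of -0.74, -0.835, -0.44, -0.49 and -0.405. The 4758 cells left in Mll3/4SI held 3448 granulocyte-like and 360 HSC/MPP-like cells. The 6740 left in control held 3648 and 968. The part of this mix of classes in the ratios was not tested. That direction turned in 5 of 17 alternatives, among them a finer clustering that put 9.79% of Mll3/4SI cells in the state, where the median ratio of the 5 genes was 0.36. The share of cells with at least 1 UMI was also higher in Mll3/4SI than in control when all kept cells were counted. Ikzf2 was detected in 34.6% of Mll3/4SI cells and 25.75% of control cells, Tespa1 in 33.4% and 22.8%, and Arhgap6 in 34.1% and 20.8%. Auts2 was detected in 21.15% and 15.1%, and Dapp1 in 77.3% and 73.9%.

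In the control library, the 5 genes were carried by several classes, and not by the same ones. A class named HSC/MPP-like holds cells with markers of haematopoietic stem cells and multipotent progenitors. There (968 control cells), Auts2 stood at 165 CPM (159 to 170), Ikzf2 at 244 (238 to 251), Tespa1 at 144 (139 to 149), Dapp1 at 472 (463 to 481) and Arhgap6 at 81.4 (77.8 to 85.2). In the erythroid-like class (445 control cells) the values were 400.2, 472, 51.4, 430.2 and 142 CPM in the same order. Auts2, Ikzf2 and Arhgap6 were thus higher, and Tespa1 and Dapp1 lower, in erythroid-like than in HSC/MPP-like control cells, with counting intervals that do not overlap.

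The erythroid-like class also held basophil and mast cell markers, which summed to 1766 CPM there and to 308 CPM in HSC/MPP-like control cells. A finer clustering, used after these values were seen, separated a basophil/mast-like class of 122 control cells, led by the basophil protease genes Mcpt8 and Prss34, the eosinophil granule gene Prg2 and the IgE receptor gene Ms4a2. In these cells Auts2 stood at 1277 CPM, Ikzf2 at 1099, Tespa1 at 139, Dapp1 at 654.5 and Arhgap6 at 186. Auts2 and Ikzf2 had their highest control level there, while Tespa1 lay within counting error of its level in HSC/MPP-like control cells. In the 331 erythroid-like control cells that remained, Auts2 stood at 107 CPM, Ikzf2 at 265 and Tespa1 at 21.8. The basophil/mast-like level of Auts2 was 806 CPM in Mll3SI (105 cells) and 1867 CPM in Mll4SI (81 cells), and that of Ikzf2 was 1113 and 1197 CPM. Of the 151 Mll3/4SI cells in this class, 117 were cells of the state, all in cluster 8, and Auts2 stood at 1290 CPM and Ikzf2 at 830.4 CPM over the 151.

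Dapp1 and Arhgap6 had their highest control level elsewhere, in cluster 20 (139 control cells). This cluster was led by Pf4, Prkg1 and Med12l, held as many HSC/MPP as megakaryocyte markers and stayed unnamed. Dapp1 stood at 862 CPM and Arhgap6 at 359 CPM in it, against 57.2 for Auts2, 126.5 for Ikzf2 and 21.2 for Tespa1. The order across libraries was narrow there for Dapp1, at 845, 890.5 and 932 CPM in Mll3SI, Mll4SI and Mll3/4SI (44 cells). Arhgap6 stood at 306, 485 and 374 CPM in the same 3 libraries.

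Lymphoid classes were few in cells and differed in which of the genes they carried. The 71 B-lymphoid-like control cells had Auts2 at 322 CPM (290 to 356) and no UMI of Ikzf2, where 3 counts would be 2.565 CPM. Tespa1, Dapp1 and Arhgap6 stood at 58.1, 43.6 and 14.5 CPM in them. The 108 T/NK-like cells of all 4 libraries together had Ikzf2 at 443 CPM (399 to 489) and Tespa1 at 195 CPM (166 to 226), and Auts2 at 10.4 CPM. Leading genes of this class included the natural killer cell genes Klrd1 and Ncr1, and T cells and natural killer cells were not told apart in it.

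Granulocyte-like and monocyte-like cells had low levels of most of the genes. The 785 monocyte-like control cells had Auts2 at 65.7, Ikzf2 at 18.5, Tespa1 at 29.8, Dapp1 at 111 and Arhgap6 at 10.9 CPM. In the 3648 granulocyte-like control cells, Auts2, Ikzf2, Tespa1 and Arhgap6 stood between 3.24 and 5.63 CPM. Dapp1 stood at 81.5 CPM in the granulocyte-like cells and was detected in 65.4% of them. With each cell thinned to 3000 UMIs, Dapp1 was detected in 20.8% of granulocyte-like control cells and the other 4 genes in 0.691% to 1.49%. The low levels were uneven over granulocyte-like clusters. Clusters 4 and 16, led by Elane and other early granule genes, had Auts2 at 15.2 and 18.3 CPM over all libraries, while cluster 15, led by mitotic genes such as Ube2c, had 0.115 CPM. The share that free RNA gives was not measured. In HSC/MPP-like control cells the thinned shares were 23.8% for Auts2, 46.4% for Ikzf2, 34.9% for Tespa1, 69.6% for Dapp1 and 20.04% for Arhgap6.

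**Figure D2:**
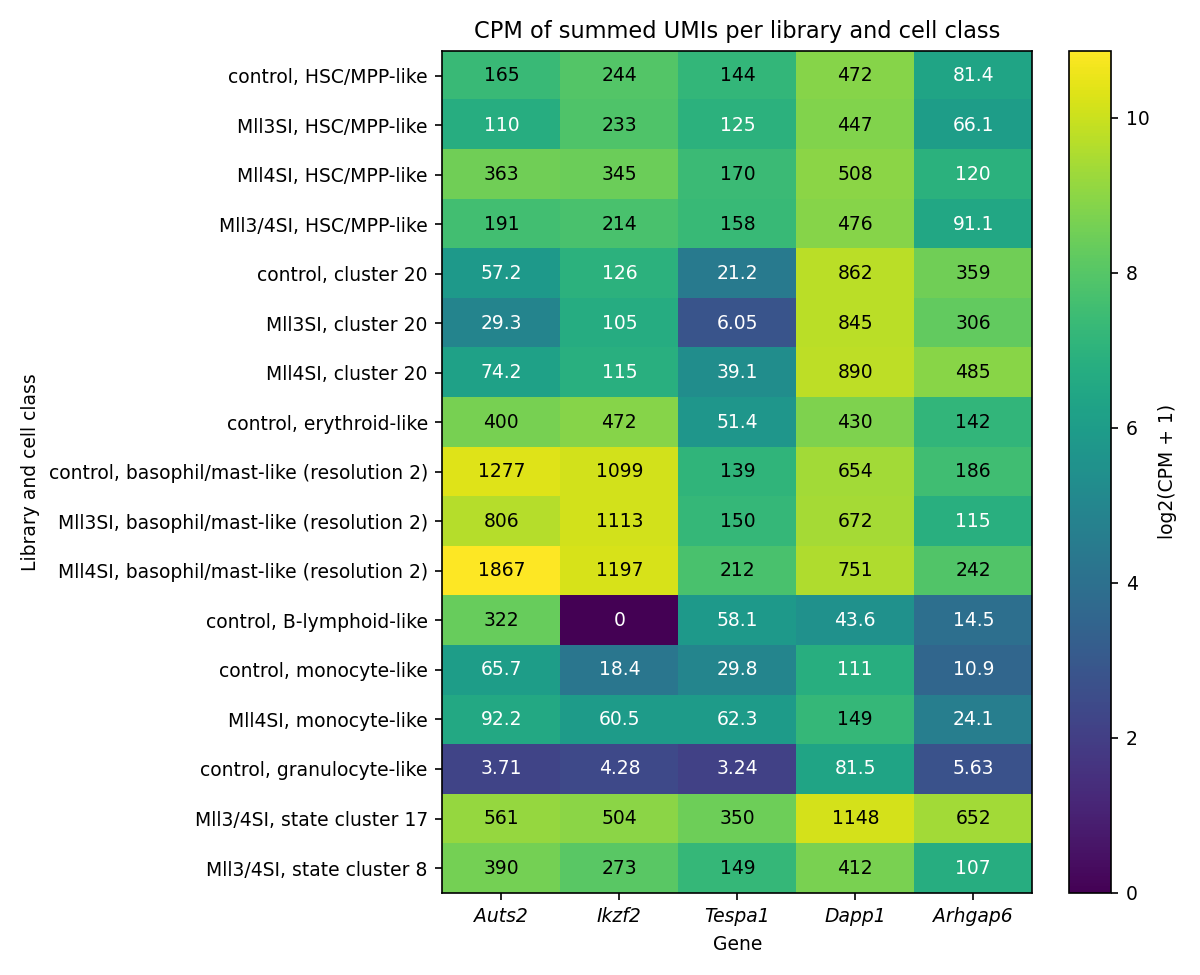
Heat map of the 5 genes (columns) in selected libraries and cell classes (rows), with the colour giving log2 of CPM plus 1 and the number in each cell the CPM of summed UMIs. Auts2 and Ikzf2 are highest in basophil/mast-like cells of the finer clustering (1277 and 1099 CPM in control), Dapp1 and Tespa1 in cluster 17 (1148 and 350.5 CPM), and Auts2 is at 3.71 CPM in granulocyte-like control cells.

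Among HSC/MPP-like cells outside the state, the library that differed most from control was Mll4SI and not Mll3/4SI. Auts2 stood at 165, 109.8, 363 and 191 CPM in control, Mll3SI, Mll4SI and Mll3/4SI (968, 967, 877 and 360 cells). Ikzf2 stood at 244, 233, 345 and 214 CPM, and Tespa1 at 144, 125, 169 and 158 CPM. Mll4SI was the highest library for all 3, and Auts2 there was more than 2-fold above control, a ratio that rested on Hashtag2 cells (log2 2.34) and was 0.16 in Hashtag1 cells.
Dapp1 stood at 472, 447, 508 and 476 CPM, a narrow range for the adaptor. Arhgap6 stood at 81.4, 66.1, 120.3 and 91.1 CPM, again highest in Mll4SI. Mll4SI over control gave log2 ratios of 1.14 for Auts2, 0.50 for Ikzf2, 0.23 for Tespa1, 0.11 for Dapp1 and 0.56 for Arhgap6, so 1 of the 5 passed a 2-fold ratio, where 1.52% of all genes tested did so in that direction. Mll3SI over control ran from -0.58 for Auts2 to -0.07 for Ikzf2. Mll3/4SI over control was 0.21 for Auts2 (0.13 to 0.29), -0.19 for Ikzf2 (-0.27 to -0.12), 0.135 for Tespa1 (0.05 to 0.22), 0.01 for Dapp1 (-0.04 to 0.06) and 0.16 for Arhgap6 (0.045 to 0.28). None of the 5 passed a 2-fold ratio there, where 0.827% of genes were at least 2-fold higher and 0.618% at least 2-fold lower.

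The HSC/MPP-like class joined 3 clusters, and 3 of the genes were highest in the same one of them in each library. Auts2 was highest of the 3 in cluster 9, led by Aff3, Rnf220 and Bcl2, at 199.2, 128, 433 and 242 CPM in control, Mll3SI, Mll4SI and Mll3/4SI. Dapp1 and Arhgap6 were highest in cluster 18, led by the stem cell regulators Mecom and Meis1 with Angpt1 and Msi2. Arhgap6 stood at 177, 163, 256 and 173 CPM in cluster 18 and at 56.9, 44.1, 103 and 73.3 CPM in cluster 9. Dapp1 stood at 600.4, 597, 804 and 627.5 CPM in cluster 18 and at 429, 385, 462 and 421 CPM in cluster 9. The 3 clusters held 404, 355 and 209 of the control cells and 141, 141 and 78 of the Mll3/4SI cells.

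In monocyte-like and erythroid-like cells, too, each gene was higher in Mll4SI than in Mll3SI, which did not hold in granulocyte-like cells. In monocyte-like cells Ikzf2 stood at 18.5, 15.7, 60.6 and 22.5 CPM and Arhgap6 at 10.9, 8.28, 24.1 and 16.5 CPM in control, Mll3SI, Mll4SI and Mll3/4SI. Mll4SI over control was 0.48 for Auts2, 1.66 for Ikzf2, 1.04 for Tespa1, 0.42 for Dapp1 and 1.08 for Arhgap6, and 3 of the 5 passed a 2-fold ratio, where 1.40% of genes tested did. In monocyte-like cells all 5 genes were lower in Mll3SI than in control, by log2 ratios of -0.76 to -0.22. In erythroid-like cells Mll4SI over control ran from 0.28 to 0.81 and Mll3/4SI over control from -0.09 to 0.64. In granulocyte-like cells Ikzf2 stood at 4.01 CPM in Mll4SI and 5.01 in Mll3SI, Tespa1 at 2.01 and 3.09, and Dapp1 at 76.8 and 77.3, while Auts2 stood at 4.08 and 3.94 and Arhgap6 at 6.76 and 3.298. Over granulocyte-like and monocyte-like cells together, none of the 5 passed a 2-fold ratio for Mll3/4SI over control, where 0.905% of genes were at least 2-fold higher and 1.51% at least 2-fold lower.

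Within the state, Auts2 stood at 442 CPM (436 to 448), Ikzf2 at 344 (338 to 349), Tespa1 at 210.4 (206 to 215), Dapp1 at 637 (630 to 644) and Arhgap6 at 273 (269 to 278) in Mll3/4SI cells. Against HSC/MPP-like cells of the same library, the log2 ratios were 1.21, 0.68, 0.41, 0.42 and 1.575, and 2 of the 5 passed a 2-fold ratio, where 3.22% of genes did so upward and 2.85% downward. Against HSC/MPP-like control cells they were 1.42, 0.49, 0.54, 0.43 and 1.74, again with 2 of 5 past a 2-fold ratio, where 4.47% of genes did so upward and 3.68% downward. These comparisons share the state cells on which the genes were chosen, and nothing is read from the counts. Against Mll4SI HSC/MPP-like cells the ratios were 0.28, -0.01, 0.31, 0.33 and 1.18. Against the 122 basophil/mast-like control cells they were -1.53 for Auts2, -1.675 for Ikzf2, 0.595 for Tespa1, -0.04 for Dapp1 and 0.56 for Arhgap6. In the main clustering, the state over erythroid-like cells gave 0.14 for Auts2 and -0.46 for Ikzf2 against control and 0.095 and -0.615 against Mll3/4SI. The state was therefore not the highest carrier of Ikzf2 under either clustering, and Auts2 was higher in basophil/mast-like cells. Mll4SI erythroid-like cells of the main clustering also had more Auts2 (651 CPM), but that class held the basophil and mast cells. Erythroid-like Mll4SI cells of the finer clustering had 181 CPM.

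The clusters of the state differed from each other more than the state differed from HSC/MPP-like cells of the same library for 4 of the 5 genes, all but Auts2. Arhgap6 stood at 107 CPM in cluster 8 and 652.5 in cluster 17, Dapp1 at 412.5 and 1148, and Tespa1 at 149 and 350.5. Ikzf2 stood at 273 and 504 CPM, and Auts2 at 389.5 and 561 CPM. Cluster 17 over cluster 8 gave log2 ratios of 2.60 for Arhgap6, 1.48 for Dapp1, 1.23 for Tespa1, 0.88 for Ikzf2 and 0.525 for Auts2. Cluster 17 over Mll3/4SI HSC/MPP-like cells was at least 1.14 for each gene, so 5 of 5 passed a 2-fold ratio, where 5.26% of genes did. Cluster 8 over the same cells was 1.03 for Auts2, 0.35 for Ikzf2, -0.09 for Tespa1, -0.205 for Dapp1 and 0.23 for Arhgap6, so 1 of 5 passed, where 3.65% of genes did. Both clusters are made of the state cells on which the genes were chosen, so nothing is read from these counts. Against Mll4SI HSC/MPP-like cells, cluster 8 lay between -0.34 and 0.10 for the 5 genes. In cluster 8, then, only Auts2 of the 5 stood past a 2-fold ratio over Mll3/4SI HSC/MPP-like cells. That ratio differed between the hashtags. In Hashtag1 cells Auts2 stood at 504 CPM in cluster 8, 774.5 in cluster 17 and 114 in Mll3/4SI HSC/MPP-like cells. In Hashtag2 cells the values were 357.6, 474.6 and 356.6 CPM in the same order.

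**Figure D3:**
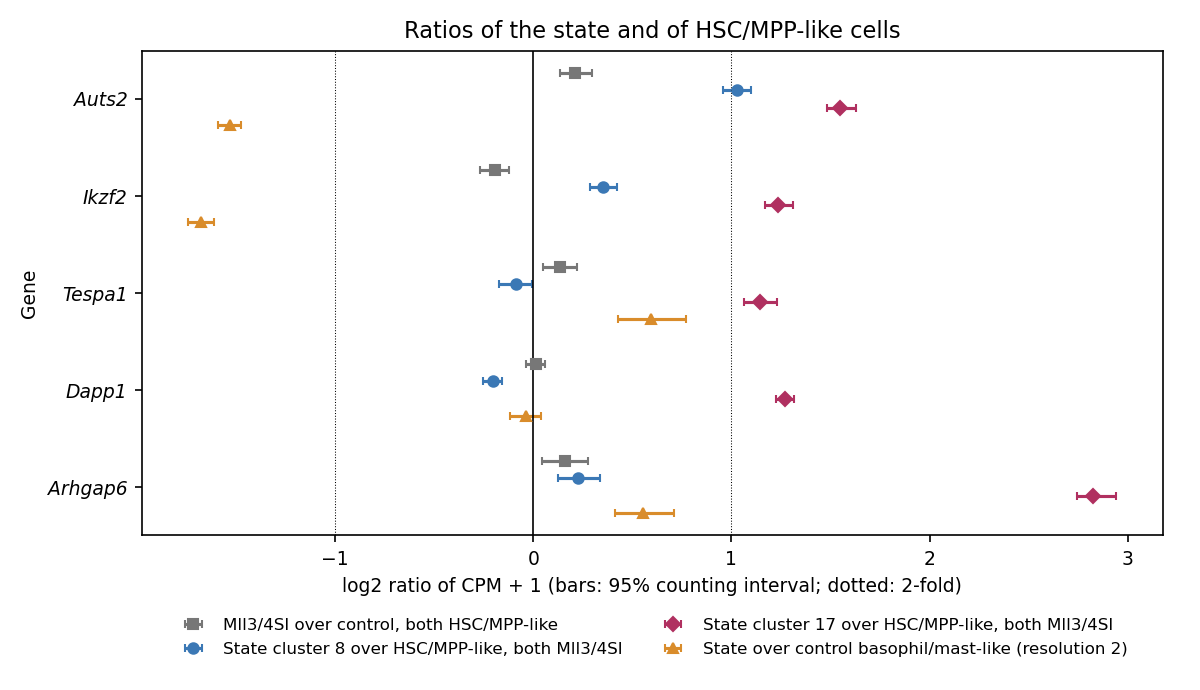
Log2 ratio of CPM plus 1 (horizontal axis) of each gene (rows) in 4 comparisons given by colour and symbol, with exact 95% counting intervals of the ratio without the added 1 CPM and dotted lines at 2-fold. Cluster 17 lies past 2-fold for all 5 genes (Arhgap6 2.83), cluster 8 for Auts2 (1.03), and the state lies below basophil/mast-like control cells for Auts2 (-1.53). The genes were chosen on the cells of the state.

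Marker genes of other cell types moved with the clusters, and their part in the levels above was not tested. The 14 granulocyte markers summed to 38955 CPM in cluster 8, 3666 in cluster 17, 11755 in Mll3/4SI HSC/MPP-like cells and 11420 in HSC/MPP-like control cells, with Mpo at 6081 CPM in cluster 8 and 495 in cluster 17. The 12 HSC/MPP markers summed to 706, 3774, 1583 and 1762 CPM in the same order. Of the sum in cluster 17, Angpt1 gave 2686 CPM and Meis1 690. Mecom was at 0.425 and 29.2 CPM in clusters 8 and 17 and at 172 CPM in HSC/MPP-like control cells. In cluster 17, Hlf, Procr, Hoxa9, Ly6a, Fgd5 and Cd34 were also lower than in those control cells. Mllt3, Meis1, Slamf1, Mycn and Angpt1 were higher. The 10 basophil and mast cell markers summed to 1270 and 1958 CPM in clusters 8 and 17, against 463 and 308 CPM in the HSC/MPP-like cells and 5694 CPM in the basophil/mast-like control cells. Cpa3 stood at 621 and 1078 CPM in clusters 8 and 17 and Fcer1a at 130 and 457 CPM, while the defining protease genes Prss34 (3.68 and 0.207 CPM) and Mcpt8 (139.9 and 2.004 CPM) were low beside 847 and 1368 CPM in basophil/mast-like control cells, and Tpsb2 and Cma1 had no UMI in the state. The 11 monocyte markers summed to 1801 CPM in cluster 8 and 136 in cluster 17. They summed to 662 CPM in Mll3/4SI HSC/MPP-like cells and 470 in HSC/MPP-like control cells. The 8 megakaryocyte markers summed to 39.3 CPM in cluster 8 and 663 in cluster 17, of which Pf4 gave 553. The 12 T/NK markers summed to 1.73 and 10.5 CPM, the 11 B-lymphoid markers to 39.55 and 25.5 CPM and the 11 erythroid markers to 49.8 and 62.8 CPM in clusters 8 and 17.

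When each state cell was given the most common class among its nearest control cells, 43.8% fell to HSC/MPP-like, 19.03% to monocyte-like, 18.03% to granulocyte-like, 10.3% to erythroid-like and 8.76% to cluster 20. Most of cluster 8 fell to HSC/MPP-like (36.9%), monocyte-like (28.5%), granulocyte-like (27.0%) and erythroid-like (7.36%) cells. Cluster 17 fell to HSC/MPP-like (57.4%), cluster 20 (26.3%) and erythroid-like (16.2%) cells. In the finer clustering, 1213 of the 1332 cells of cluster 8 lay in clusters named granulocyte-like and 117 in the basophil/mast-like class, while 660 of the 665 cells of cluster 17 stayed unnamed. The median depth was 22430 UMIs per cell in the state and 26034 in Mll3/4SI HSC/MPP-like cells.

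Surface antibodies, counted in the same cells and not used to cluster them, also separated the clusters. Values are medians of the centred log2 ratio, an antibody's log2 count in a cell relative to the mean of its 13 surface antibodies. CD41, an integrin of megakaryocytes and early progenitors, stood at 2.14 in the state and 0.007 in Mll3/4SI HSC/MPP-like cells. CD16/32, the Fc gamma receptors of myeloid progenitors, stood at 2.89 and 2.01, and CD34 at 0.115 and 1.05. Within the state, CD16/32 stood at 4.585 in cluster 8 and -0.22 in cluster 17, CD41 at 1.57 and 3.65, and CD150, a marker of stem cells and megakaryocyte progenitors, at -2.99 and -0.65. The cluster with the higher Dapp1, Arhgap6 and Tespa1 was therefore the one with more CD41 and CD150 and less CD16/32. High CD41 was not particular to the state. In cluster 20 CD41 stood at 2.40, 2.05, 3.32 and 2.53 in control, Mll3SI, Mll4SI and Mll3/4SI. CD150 stood there at 2.08, 1.90, 1.90 and 1.94. CD117, the Kit protein used to select the cells, stood at 2.99 in the state and 3.37 in Mll3/4SI HSC/MPP-like cells.

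**Figure D4:**
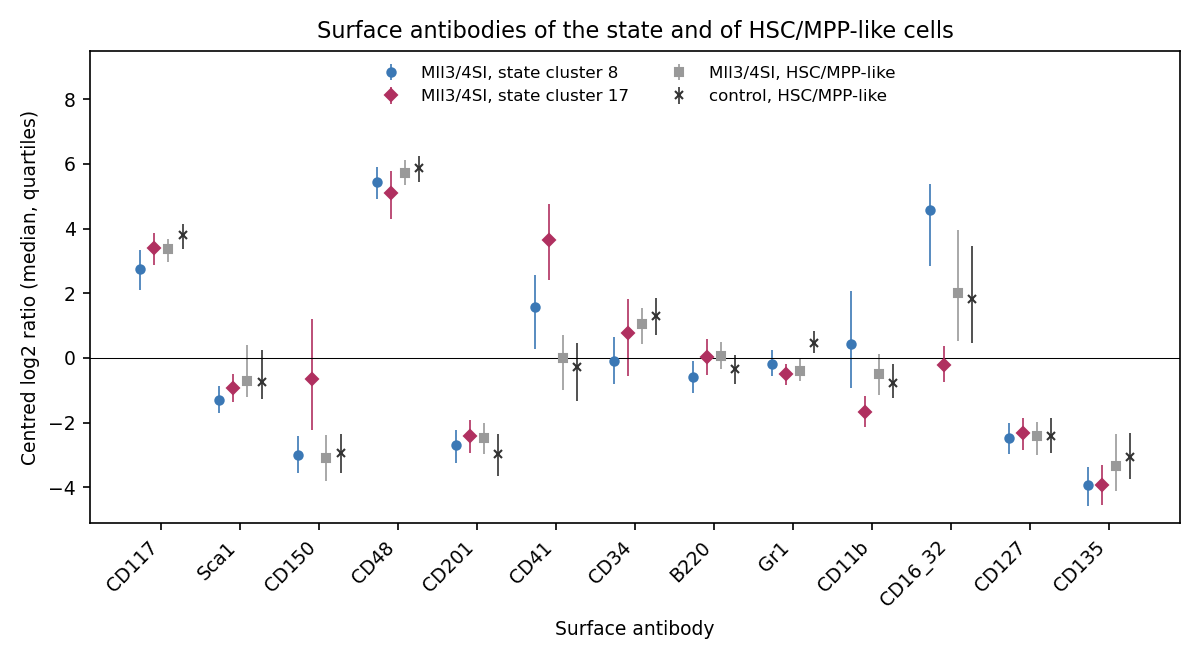
Centred log2 ratio of the 13 surface antibodies (symbols, medians over cells; lines, quartiles) in clusters 8 and 17 of the state and in HSC/MPP-like cells of Mll3/4SI and control. Among the groups shown, CD41 is highest in cluster 17 (3.65) and CD16/32 in cluster 8 (4.585).

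Each library was stained with a pair of hashtag antibodies whose meaning the labels do not give, and the share of the state differed between them. Of Mll3/4SI cells with Hashtag1 alone, 466 of 2915 were in the state (16.0%, 14.7% to 17.4%), and of those with Hashtag2 alone, 1497 of 3643 (41.1%, 39.5% to 42.7%). Over all kept cells, Mll3/4SI over control gave log2 ratios of 0.41 and 2.27 for Auts2 in Hashtag1 and Hashtag2 cells, 0.19 and 1.21 for Ikzf2, and 0.925 and 1.41 for Tespa1. Dapp1 gave 0.24 and 0.97, and Arhgap6 gave 0.79 and 2.08. All 5 ratios were above 0 under both hashtags and larger under Hashtag2. Inside the state, Auts2 and Tespa1 were higher in Hashtag1 cells, Auts2 at 599 CPM against 392 CPM in Hashtag2 cells and Tespa1 at 228 against 206, while Ikzf2 stood at 314 and 356, Dapp1 at 639.5 and 642, and Arhgap6 at 261 and 281 CPM.

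Auts2 also differed between the hashtags in HSC/MPP-like cells, and the other 4 genes did so much less. It stood at 244 CPM under Hashtag1 and 91.9 under Hashtag2 in control, at 157 and 68.5 in Mll3SI, at 274 and 470.2 for Mll4SI cells, and at 114 and 357 for Mll3/4SI cells. The direction was thus opposite in control and Mll3SI to that in Mll4SI and Mll3/4SI. The largest ratio between the hashtags among the other genes lay in Arhgap6 of Mll3/4SI, at 82.2 and 110.1 CPM. Mll4SI over control for Auts2 was 0.16 under Hashtag1 and 2.34 under Hashtag2, and Mll3/4SI over control was -1.09 and 1.95. The Auts2 ratios in HSC/MPP-like cells therefore rest on which hashtag is read, and what the hashtags separate is not given in the sources used here. The same holds for Auts2 in the state over Mll3/4SI HSC/MPP-like cells. It stood at 599 against 114 CPM under Hashtag1 and at 392 against 357 CPM under Hashtag2.

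Auts2 was also unevenly spread over cells. In the state it averaged 10.5 UMIs per cell, yet 49.0% of cells had none, 25.5% had 10 or more, the highest cell had 300, and the 10% of cells with most held 66.1% of its UMIs. Tespa1 averaged 4.99 UMIs per cell and was at 0 in 24.0% of the same cells, and Dapp1 averaged 15.1 and was at 0 in 3.81%. HSC/MPP-like control cells gave the same contrast, with a mean of 3.945 UMIs and 60.7% of cells at 0 for Auts2, against 3.455 UMIs and 14.7% for Tespa1. After thinning to 3000 UMIs a cell, the variance of Auts2 was 2.83 times its mean in HSC/MPP-like control cells, 6.26 times in the state and 7.07 times in erythroid-like control cells, and that of Tespa1 was 1.24, 1.59 and 1.36 times its mean.

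State cells with 10 or more Auts2 UMIs (510 cells) had Ikzf2 at 464 CPM, against 306 CPM in the 978 state cells with none. Tespa1 stood at 254 against 199.3 CPM, Dapp1 at 707 against 597.5 and Arhgap6 at 290 against 264. The cells rich in Auts2 had a median of 27752 UMIs and the cells without it 20712, and 32.9% and 12.99% of them carried Hashtag1 alone. In HSC/MPP-like control cells, 130 cells with 10 or more Auts2 UMIs had Ikzf2 at 299.6 CPM against 226.5 CPM in the 588 cells with none, and 65.4% against 37.8% carried Hashtag1 alone. In Mll4SI the share with Hashtag1 alone was 34.55% against 58.5%. The part of depth and hashtag in these splits was not tested.

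**Figure D5:**
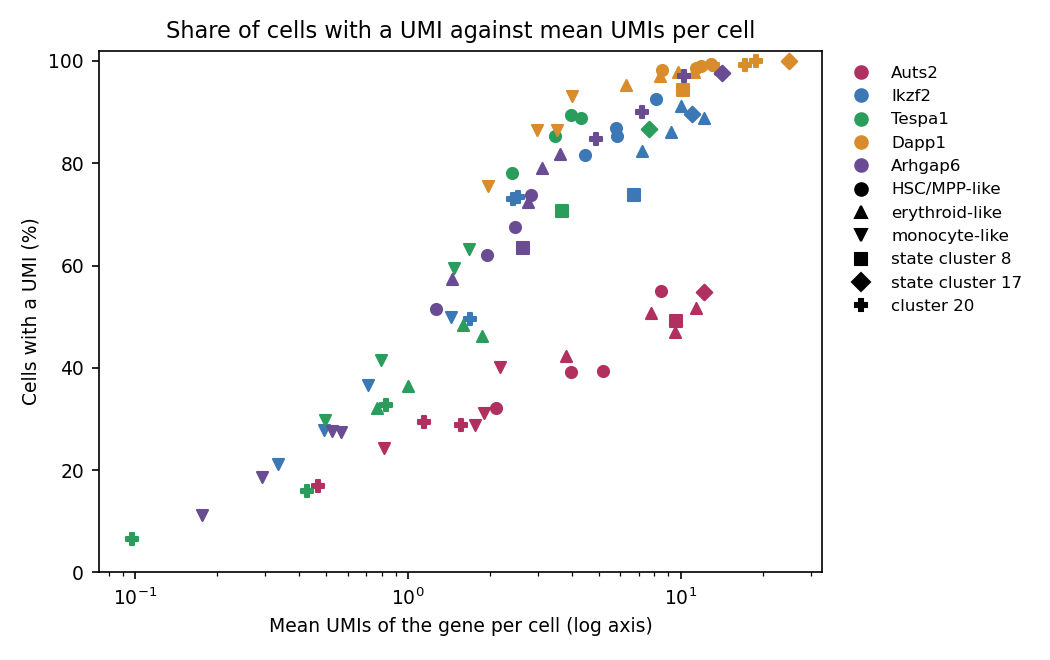
Percent of cells with at least 1 UMI of a gene (vertical axis) against its mean UMIs per cell (horizontal log axis), 1 point for each gene (colour), library and class (symbol). Above about 2 UMIs per cell the Auts2 points lie below those of the other 4 genes at a like mean, with 49.1% of cells at 9.63 UMIs in cluster 8, where Dapp1 has 94.3% at 10.2.

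The share of cells holding several of the 5 genes lay within the range of HSC/MPP-like and erythroid-like cells in cluster 8 and above it in cluster 17. The genes were chosen for their level in these state cells, so the shares of the state and its clusters are a description only. With each cell thinned to 3000 UMIs, 46.3% of state cells (44.1% to 48.55%) had at least 3 of the 5 genes, 32.4% in cluster 8 (29.9% to 35.0%) and 74.1% in cluster 17 (70.6% to 77.4%). HSC/MPP-like cells had a share of 30.8% (control), 24.0% (Mll3SI), 43.7% (Mll4SI) or 32.4% (Mll3/4SI). Erythroid-like control cells had 37.7% and Mll4SI erythroid-like cells 57.6%, a class that also held the basophil and mast cells. No such share is given for the basophil/mast-like class of the finer clustering. After thinning, its control cells had Auts2 in 71.1%, Ikzf2 in 90.9%, Tespa1 in 36.4%, Dapp1 in 82.6% and Arhgap6 in 42.15%. Cluster 17 had them in 39.0%, 59.8%, 56.9%, 94.6% and 73.95%. Unthinned, the share was 82.6% in the state and 88.6% in HSC/MPP-like control cells. Thinning left out 11 of the 1997 state cells and 5 of the 968 HSC/MPP-like control cells.

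Across 31 sums of a library and a class with at least 50 cells, the genes fell into patterns of their own. These correlations are descriptions, since the sums share libraries and depth. Dapp1 and Arhgap6 were the pair most alike (Pearson r of log2 CPM with 10 CPM added, 0.948), followed by Auts2 and Tespa1 (0.921) and by Ikzf2 and Dapp1 (0.912), and Tespa1 and Arhgap6 were the least alike (0.600). Without the state these values were 0.945, 0.916, 0.907 and 0.559. Of 9577 other genes, those most like Auts2 were the sialyltransferase gene St6galnac3 (0.947), the chromatin remodeller Chd3 (0.946), the transcription factor Sox4 (0.946), Mospd3 (0.941) and Wdr60 (0.934). Those most like Tespa1 were Chd3 (0.927), the DNA sensor Aim2 (0.921), Sox4 (0.920), Cd244a (0.909) and Nr6a1os (0.906). Those most like Ikzf2 were the zinc finger gene Zbtb16 (0.968), 4930519L02Rik (0.959), Mc5r (0.947), Slc7a8 (0.943) and Spns2 (0.943). Those most like Dapp1 were Meis1 (0.959), Myct1 (0.955), Muc13 (0.952), Angpt1 (0.949) and Rab38 (0.948). Those most like Arhgap6 were its antisense gene Gm15261 (0.979), Rgs1 (0.969), the Cdc42-binding kinase gene Cdc42bpa (0.966), Gse1 (0.953) and P2ry14 (0.949). By Spearman correlation of CPM, 2, 1, 3, 1 and 3 of these 5 stayed among the top 5 for Auts2, Ikzf2, Tespa1, Dapp1 and Arhgap6.

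Other genes of the pathways in which the 5 act were looked at in lists, of which 4 are described. Of the 19 Ikaros family and NuRD genes, 17 had a mean of at least 1 CPM, and none passed a 2-fold ratio in any of the 4 comparisons made: the state over HSC/MPP-like cells of Mll3/4SI, the state over those of control, and Mll3/4SI over control in HSC/MPP-like and in granulocyte-like with monocyte-like cells. The same was true of all 13 partners of AUTS2 and Polycomb repressive complex 1. Their median ratios for the state over Mll3/4SI HSC/MPP-like cells were -0.13 and -0.02, beside -0.05 over all 12517 genes tested. Of 18 measured antigen receptor and calcium signalling genes, 3 were at least 2-fold lower in the state against either reference and none was at least 2-fold higher, where 2.85% and 3.68% of all genes were at least 2-fold lower. These were Lat, an adaptor of the T cell receptor (1.48 CPM in the state, 4.599 in Mll3/4SI HSC/MPP-like cells), the kinase gene Lck (0.570 and 3.88 CPM) and the calcium-responsive factor Nfatc2 (0.211 and 4.395 CPM). All 3 were at low levels in both groups of cells.

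In the phosphoinositide 3-kinase list, of which 20 genes were measured, the B cell adaptor Blnk was lower in the state than in Mll3/4SI HSC/MPP-like cells (0.127 against 4.395 CPM, log2 ratio -2.26). Blnk was also the 1 gene of these lists past a 2-fold ratio between Mll3/4SI and control HSC/MPP-like cells, at 4.395 against 1.34 CPM (1.21). In granulocyte-like with monocyte-like cells no gene of the 4 lists passed a 2-fold ratio. The median ratios of the antigen receptor and phosphoinositide 3-kinase lists over Mll3/4SI HSC/MPP-like cells were 0.11 and 0.02.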

How the data were processed

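The deposited files hold whole-number UMI counts per cell for 32285 genes, 13 surface antibodies and 2 hashtag antibodies, made by the authors with Cell Ranger 7.1.0 (named both in the headers and in the submitters' processing notes) on the build mm10, per the submitters' processing notes. Whether introns were counted is not given in the sources used here.

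Cells with at least 1000 UMIs, 500 genes and at most 10% mitochondrial UMIs were kept, and the top 0.8% of cells per 1000 by Scrublet score were removed as doublets. The 4 libraries were clustered together (scanpy 1.11.5, leidenalg 0.10.2, 2000 variable genes without the 5 genes and list genes, 30 components, 15 neighbours, resolution 1). A cluster took a name where at least 3 markers of 1 type were at least 2-fold higher, 2 more than of any other type, a rule set after the clusters were seen, as were the hashtag thresholds of 129 and 320 counts. UMIs were summed per library and class into CPM, and ratios had 1 CPM added. Intervals are exact Poisson, binomial or Clopper-Pearson at 95%, and a floor is 3 counts. Statistical code was tested on simulated data. Classes needed 50 cells. Genes named outside the 5 were list genes past a 2-fold ratio, the 5 genes most correlated with each (reaching 20 CPM in 1 sum), the leading genes and markers of clusters, and library checks. The 5 genes and the lists were chosen with earlier results of these data known. Alternatives covered doublets, filters, resolution, scaling, added CPM, hashtags, nearest control cells and thinning. Some list results are not reported here.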

Additional observations from a re-analysis of the deposited data

How the results depend on the processing

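With 1 library a group the limits are of kind as well as size: library, donor sex and group cannot be told apart, no value was checked in another animal, and in shallow or small classes a difference within the counting interval was not detectable. No paired analysis was possible because each group has 1 library. The values below are medians over the 5 genes of the log2 ratio, and each alternative kept the other choices. Mll3SI over control kept its sign under all 17 alternatives in all kept cells and in HSC/MPP-like cells, where it stayed within its counting interval except for 2 values in all kept cells: from -0.396 it moved to -0.335 with 10 CPM added and to -0.322 in Hashtag2 cells. Mll4SI over control in all kept cells, 0.015, became 0.175 with median-of-ratios scaling, -0.337 as a mean over cells, -0.170 in Hashtag1 cells and -0.125 in Hashtag2 cells, so its sign is not settled. Mll3/4SI over control in all kept cells, 1.204, became 1.041 as a mean over cells, 1.042 with 10 CPM added, 0.417 in Hashtag1 and 1.372 in Hashtag2 cells. In HSC/MPP-like cells, Mll4SI over control, 0.498, became 0.558 at resolution 0.5, 0.583 with the 5 genes kept for clustering, 0.562 with a stricter cell filter, 0.229 in Hashtag1 and 0.563 in Hashtag2 cells. Mll3/4SI over control, 0.135, became -0.027 with the stricter filter, -0.092 in Hashtag1 cells and 0.848 when each cell took the class of its nearest control cells, which moves state cells into the class.

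The size of the state depended on the clustering. From 29.563% of Mll3/4SI cells it moved to 27.121% at resolution 0.5, 9.785% at resolution 2, 10.201% with no doublets removed, 27.313% with the 5 genes kept, 28.428% with the stricter filter, 16.078% in Hashtag1 and 40.047% in Hashtag2 cells. Added after seeing the data, cluster 8 alone gave 19.719% and cluster 17 alone 9.845%. Mll3/4SI over control without the state, -0.494, became 0.333 with no doublets removed, 0.360 at resolution 2, 0.594 with only cluster 8 left out, 0.350 with only cluster 17 left out, -0.323 with the 5 genes kept, -0.310 with median-of-ratios scaling, -0.540 as a mean over cells and -0.570 in Hashtag2 cells. It was 1.204 by nearest control cells, where no state is defined. The sign turned in the 5 of 17 alternatives with a value above 0 and held in the others, among them the 5 genes kept and Hashtag1 cells, where the state was also smaller. The state over HSC/MPP-like control cells, 0.543, became 1.053 with no doublets removed, 0.314 at resolution 0.5, 0.906 at resolution 2, 0.219 with the 5 genes kept, 0.300 with the stricter filter, 0.629 with median-of-ratios scaling, 0.452 as a mean over cells, 0.659 in Hashtag1 cells, 0.161 for cluster 8, 1.281 for cluster 17 and -0.039 against basophil/mast-like control cells. The state over HSC/MPP-like cells of Mll3/4SI, 0.684, became 1.032, 0.375, 0.830, 0.243, 0.450, 0.761 and 0.519 under the first 7 of these, 0.408 in Hashtag2 cells, 0.227 for cluster 8 and 1.269 for cluster 17.

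A minimum mean of 10 CPM in place of 1 lowered the counts of genes at least 2-fold higher: for the state over Mll3/4SI HSC/MPP-like cells from 403 to 163 (lower, 357 to 105), over HSC/MPP-like control cells from 561 to 233 (lower, 462 to 160), for cluster 17 from 662 to 299 and for cluster 8 from 453 to 239. For Mll3/4SI over control they went from 210 to 75 in all kept cells, 103 to 29 in HSC/MPP-like cells (lower, 77 to 21) and 105 to 46 in granulocyte-like with monocyte-like cells (lower, 175 to 89). For Mll4SI over control they went from 190 to 57 in HSC/MPP-like and 167 to 56 in monocyte-like cells. With no minimum each count stayed within 1.5 times. A higher minimum only removes genes and leaves each ratio as it was, so these counts could only fall or stay. Taking the minimum away could only raise them or leave them. Nothing is read from the direction of these changes.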
